A study of Homo sapiens with 2 samples.

Results

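The CDC25 phosphatases and the checkpoint kinases that act against them were followed in HCECs, human corneal epithelial cells immortalized with SV40, at 48 h in cells given miR-184 mimic or NC. They are 9 genes of the 22368 that could be named on the array, namely the phosphatases *CDC25A*, *CDC25B* and *CDC25C* and the 6 kinases *WEE1*, *PKMYT1*, *CHEK1*, *CHEK2*, *ATM* and *ATR*. They were chosen by name, as the features whose annotation carried exactly 1 symbol, that of the gene. Each gene had 1 such feature of the 65854, and no feature with several symbols carried any of them. The miR-184 group was 1 array of SV40-HCECs given 50 nM of the mimic, a synthetic RNA duplex that supplies mature miR-184. The NC group was 1 array of the same line given the negative control, for which the study states no separate dose. The cells of both arrays carried the large T antigen of SV40, which disturbs cell cycle control, so the line is limited as a model of checkpoint control in the normal corneal epithelium. With 1 array per condition no spread between replicates exists, hence no *P*-value or error is given for any value, and an effect of the mimic cannot be told apart from any other difference between the 2 samples.

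Values are log2 signals as deposited, and every difference is miR-184 minus NC on that scale, so that a negative one means a lower signal with the mimic. The median difference over all genes was 0.04. The 11184 genes whose mean signal over both arrays reached the gene median of 4.24 are called the brighter genes, and their differences had an SD of 0.46, which is a spread between genes and not a replicate error. All 9 genes were among them. Of 10 measured epithelial markers 6 were too (*KRT5*, *KRT8*, *KRT18*, *KRT19*, *CDH1* and *EPCAM*), whereas the cornea-type keratins *KRT3* (3.82 with miR-184, 3.81 with NC) and *KRT12* (3.44 and 3.55), *PAX6* (3.54 and 3.48) and *KRT14* lay below the median. These 6 expressed markers differed on both sides of 0, and some by as much as *CDC25A*. *KRT5* (0.88), *CDH1* (0.75), *EPCAM* (0.46), *KRT18* (0.28) and *KRT8* (0.05) were higher with miR-184, and *KRT19* (-0.92) was lower. Of 13 measured markers of fibroblasts, endothelium and leukocytes only *CDH5*, an endothelial cadherin, reached the median, with 6.77 under miR-184 and 8.19 under NC. The part of other cells in the results below was not tested.

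CDC25 enzymes are dual-specificity phosphatases that remove inhibitory phosphates from cyclin-dependent kinases (CDKs) and so switch them on. WEE1 and PKMYT1 place the phosphates that CDC25 removes, and the balance between both sides sets when a cell enters S phase or mitosis. When DNA is damaged or replication stalls, the apical kinases ATM and ATR activate the effector kinases CHK2 (*CHEK2*) and CHK1 (*CHEK1*), which phosphorylate CDC25 proteins and cause them to be degraded or held by 14-3-3 proteins. Much of this control acts on proteins, which an expression array does not measure.

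MiR-184 was the agent tested, and its seed, the stretch that pairs with target mRNAs, is shown in capitals (bases 2 to 8, counted from the 5′ end), because the study names *CDC25A* as its direct target through a seed site in the 3′-UTR.
hsa-miR-184: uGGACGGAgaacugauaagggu
The sequence is that of RefSeq (GRCh38.p14, chr15:79209840-79209861, + strand, 22 bases). No other of the 2370 mature miRNA names in that table shares the seed, and its perfect complement in an mRNA reads UCCGUCC. Whether the 3′-UTRs of the other 8 genes hold this heptamer was not analysed here. The feature of the gene *MIR184*, at 3.58 with miR-184 and 3.47 with NC, measures the precursor, which a mimic does not supply, and so does not check the transfection.

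The CDC25 phosphatases differed from each other. *CDC25A*, which activates CDK2 at the G1/S transition and also acts at mitosis, was lower in the miR-184 array, *CDC25B* was lower by less, and *CDC25C*, which acts on CDK1 at mitotic entry, was close to its NC level. *CDC25A* (feature TC03001374.hg.1) gave a signal of 5.44 with miR-184 and 6.34 with NC. The difference of -0.90, or 1.86 times lower, was the most negative of the 9, and 1.73% of all genes (3.38% of the brighter genes) had a lower one. In RNA from a whole culture, fewer cells that express a gene and less RNA per cell cannot be told apart. By flow cytometry of transfected HCECs, the study reported a larger share of cells in G2/M with miR-184 than with NC. The part of such a shift between cell cycle phases in the differences of the 9 genes was not tested. The study took *CDC25A* from the genes that were lower by its fold and *P*-value criteria on this microarray experiment and were predicted targets, after a gene ontology step. The direction of *CDC25A* on the arrays is therefore no independent evidence. Apart from the arrays, the study reported a luciferase reporter with the 3′-UTR of *CDC25A* and a Western blot. MiR-184 lowered the reporter's activity, which mutated binding sites mitigated, and lowered CDC25A protein in HCECs.

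*CDC25B* (TC20000040.hg.1), which activates CDK1-cyclin B at the centrosome early in mitotic entry, read 6.92 with miR-184 and 7.44 with NC. Its difference was -0.52, or 1.43 times lower, and 5.26% of all genes (9.71% of the brighter genes) had a lower one. It was the gene nearest from inside to 1.5 times, the fold used throughout to count genes. *CDC25C* (TC05001829.hg.1) read 8.50 with miR-184 and 8.41 with NC, a difference of 0.09 (1.06 times higher), and 39.3% of all genes had a higher one. Set against each other, the difference of *CDC25A* was 0.38 below that of *CDC25B* on the log2 scale, and the ratio of *CDC25C* to *CDC25A* was 1.98 times higher in the miR-184 array than in the NC array. The plot of the signals in both arrays shows these gaps side by side.

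**Figure D1:**
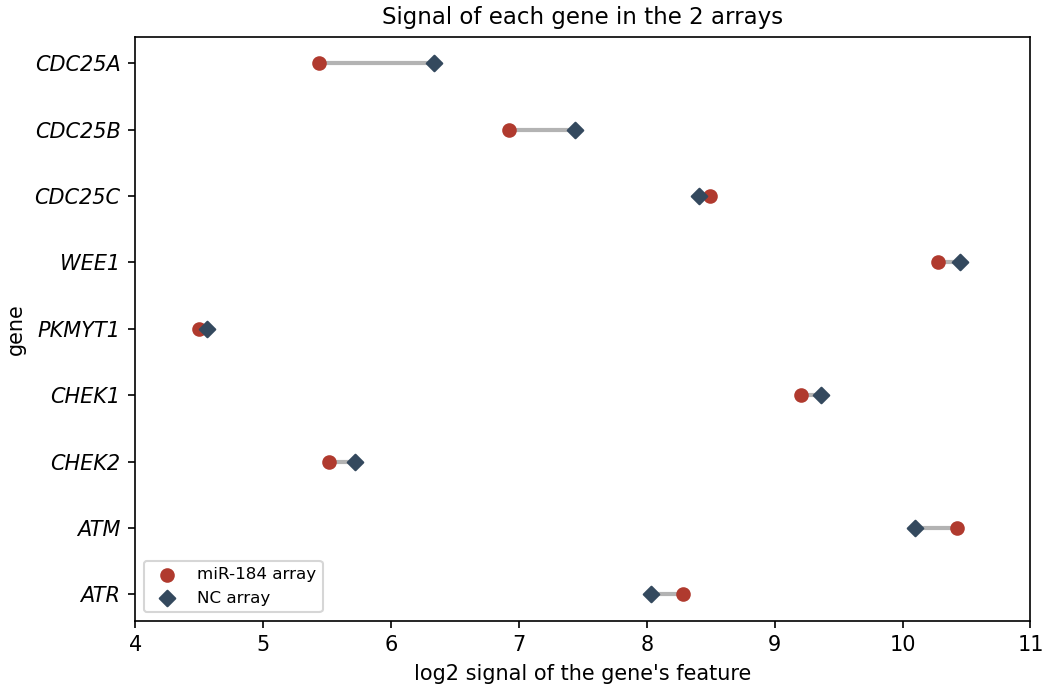
Log2 signal (x axis) of the feature of each of the 9 genes (y axis) in the miR-184 array (red circles) and the NC array (blue diamonds), 1 array each, joined by a grey line. The widest gap is that of *CDC25A*, at 5.44 with miR-184 and 6.34 with NC, while *PKMYT1* and *CDC25C* nearly coincide, and levels of different features are not comparable with each other.

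The promoters of *CDC25A* and *CDC25C* are shown because these paralogs, which stood apart on the arrays, are textbook cases of G1/S and of G2/M transcription. E2F factors act on the first, and the second is held down outside G2/M through a cell cycle homology region (CHR). The 120 bases before a RefSeq transcription start are printed 5′ to 3′ on the gene's strand, with letters of the E2F-type motif TTTGGCGC (*CDC25A*), the CHR motif TTTGAA (*CDC25C*) and CCAAT boxes on either strand in capitals.
CDC25A: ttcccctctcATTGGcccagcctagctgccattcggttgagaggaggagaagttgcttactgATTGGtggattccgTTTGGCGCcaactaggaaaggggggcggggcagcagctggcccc
CDC25C: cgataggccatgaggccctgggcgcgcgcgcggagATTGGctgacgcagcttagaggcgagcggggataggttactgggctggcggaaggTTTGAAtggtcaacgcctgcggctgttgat
They lie at chr3:48188418-48188537 and chr5:138331805-138331924 of GRCh38.p14, both on the - strand. *CDC25C* has 4 starts in the RefSeq promoter table, and the 1 printed was chosen because TTTGAA lies in the 120 bases before it. The presence of that motif in the printed stretch is therefore no result. The table held 16 windows of 300 bases, 250 before to 50 after a start, for 7 of the 9 genes, and windows of 1 gene can overlap. Searched on both strands, TTTGGCGC was in 1 of the 16, that of *CDC25A*, and in 0.652% of all 35116 windows. TTTGAA was in 3 windows, of *CDC25C* and *ATM*, against 15.2% of all, and CCAAT was in 11 windows of 6 genes, against 34.6% of all. A second E2F-type form, TTTCCCGC, was in 0 of the 16 and in 1.63% of all windows. No 2 of these motifs overlapped in the printed stretches. A match in letters is a description and says nothing on binding of a factor in HCECs.

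The kinases that place the inhibitory phosphates differed little between the arrays. *WEE1* (TC11000174.hg.1), the nuclear tyrosine kinase of CDK1 and CDK2, read 10.28 with miR-184 and 10.45 with NC, a difference of -0.17 (1.12 times lower). *PKMYT1* (TC16000796.hg.1), the membrane-bound kinase that holds CDK1-cyclin B in the cytoplasm, read 4.50 with miR-184 and 4.56 with NC, a difference of -0.07 (1.05 times lower). Both lay below 0, on the same side as *CDC25A* and *CDC25B*. A lower difference than that of *WEE1* was seen in 20.5% of all genes, and than that of *PKMYT1* in 32.0%. The signal of *PKMYT1* was the nearest of the 9 to the median signal of all genes. The difference of *CDC25A* was 0.73 below that of *WEE1* on the log2 scale, and the ratio of *WEE1* to *CDC25A* was 1.66 times higher in the miR-184 array.

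The effector kinases lay slightly below 0 and the apical kinases above it. *CHEK1* (TC11003470.hg.1), which encodes CHK1, the main kinase that marks CDC25A for degradation, read 9.21 with miR-184 and 9.36 with NC, a difference of -0.16 (1.11 times lower). *CHEK2* (TC22000626.hg.1), which encodes CHK2, the effector of ATM after double-strand breaks, read 5.51 with miR-184 and 5.72 with NC, a difference of -0.21 (1.15 times lower). Each was passed by many genes, since 21.6% of all genes had a lower difference than *CHEK1* and 17.3% than *CHEK2*. *CHEK2* has near-identical copies in the genome, and how the array divides their signal was not tested. Features of the pseudogenes *CHEK2P2* (4.20 with miR-184, 4.12 with NC) and *CHEK2P5* (3.64 and 3.81) both lay below the median signal of all genes.

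*ATM* (TC11000980.hg.1), the kinase that responds to double-strand breaks, had the highest difference of the 9, at 10.42 with miR-184 and 10.10 with NC. It was 0.32 or 1.25 times higher, and 11.6% of all genes (15.4% of the brighter genes) had a higher difference. *ATR* (TC03001854.hg.1), which responds to single-stranded DNA at stalled forks, read 8.28 with miR-184 and 8.03 with NC, a difference of 0.25 (1.19 times higher), and 16.9% of all genes had a higher one. Hence the apical kinase and its effector lay on opposite sides of 0 in both pairs, *ATR* and *CHEK1* with a gap of 0.41 and *ATM* and *CHEK2* with a gap of 0.53. The difference of each of these kinases, unlike the gap of 0.53, was smaller than the SD of 0.46 across the brighter genes. Of the brighter genes 51.2% lay below 0, so opposite signs in a pair say little.

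Among the 9 genes 1 was lower with miR-184 by at least 1.5 times, *CDC25A*, and 0 were higher by as much, against 4.16% of all 22368 genes that were lower and 3.74% that were higher. The study selected *CDC25A* among genes that were lower in this microarray experiment, so this count of 1 is no independent evidence. Among the brighter genes, where all 9 belonged, the shares were 7.74% lower and 6.24% higher. The 9 genes had a median difference of -0.16, with 6 below 0 and 3 above, against a median of 0.04 over all genes and -0.02 over the brighter genes. The 6 below 0 are 66.7% of the 9, when 40.5% of all genes and 51.2% of the brighter genes lay below 0. Without *CDC25A* the other 8 had a median of -0.11 and a range of -0.52 to 0.32, and 5 of them (62.5%) lay below 0. The differences of 7 of the 9 were smaller than the SD of 0.46 across the brighter genes, and *CDC25A* and *CDC25B* were the exceptions. At a threshold of 2 times 0 genes of the 9 passed (1.35% of all genes did so on the lower side and 0.984% on the higher side). At 1.2 times *CDC25A* and *CDC25B* were lower and *ATM* higher, when 13.9% of all genes were lower and 15.9% higher. The plot of the differences shows the order by role, and that of all genes their place in the whole array.

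**Figure D2:**
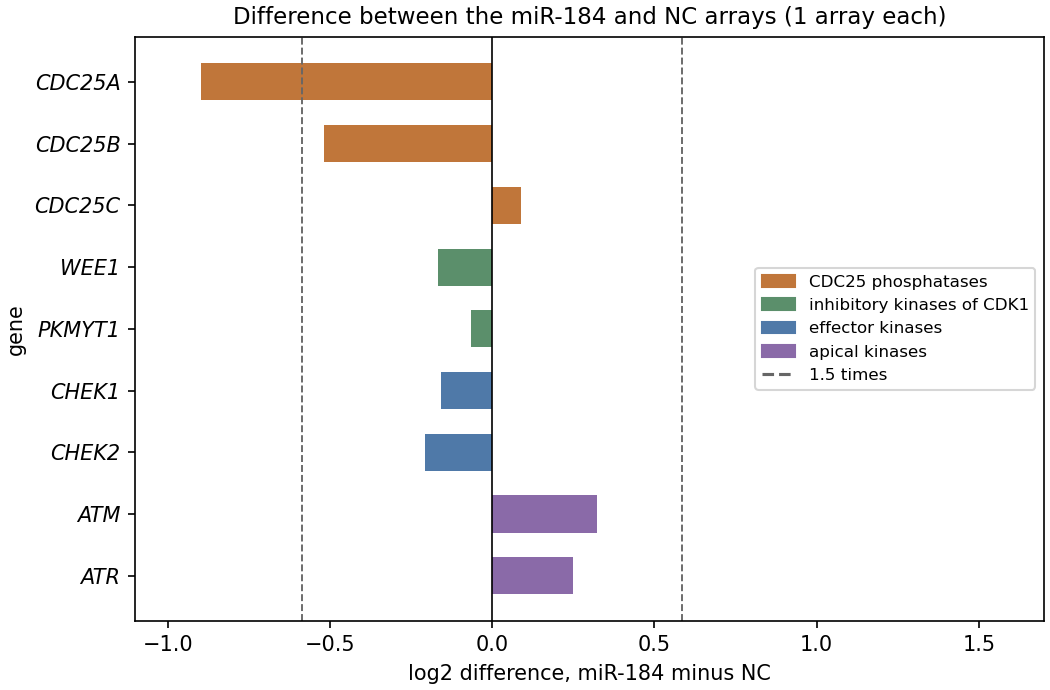
Log2 difference between the miR-184 and NC arrays (x axis, 1 array each, no error) of the 9 genes (y axis), coloured by role, with dashed lines at 1.5 times. *CDC25A* (-0.90) is past the line, *CDC25B* (-0.52) just inside it, and *ATM* (0.32) and *ATR* (0.25) are the highest.

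**Figure D3:**
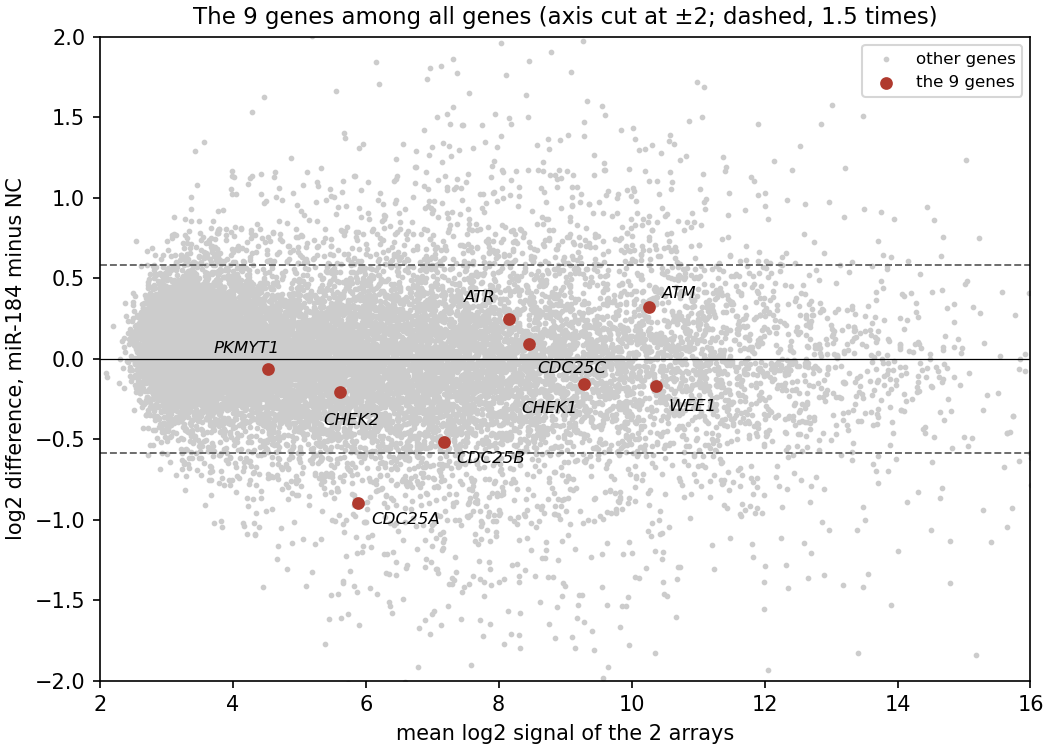
Log2 difference, miR-184 minus NC (y axis), against the mean log2 signal of the 2 arrays (x axis) for all genes (grey) and the 9 genes (red), with dashed lines at 1.5 times; 109 genes lie outside the drawn range. All but *CDC25A* lie between the dashed lines, with *CDC25B* near the lower one.

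The genes around these enzymes were taken from 7 lists, of which 73 of 77 genes were measured. Of the 73, 7 were lower with miR-184 by at least 1.5 times and 3 were higher by as much, with a median difference of 0.05, against 0.04 over all genes. These counts are 9.59% and 4.11% of the 73. Over all genes 4.16% were lower and 3.74% higher, and over the brighter genes, to which 70 of the 73 belong, 7.74% were lower and 6.24% higher. The lists thus stood close to the brighter genes as a whole, which were not matched to them in signal. The lists below hold 7 to 14 measured genes each, and a single gene is between 7.14% and 14.3% of its list, so a count of 1 says little about any of them.

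The list of the ATR-CHK1 arm, the genes that load and activate ATR and pass its signal to CHK1, had 13 measured genes. Of them 1 was at least 1.5 times lower and 0 were higher (median -0.14), a share of 7.69% against 7.74% of the brighter genes, and 9 lay below 0 (69.2%, against 51.2% of the brighter genes). The lower gene was *RAD9A*, a subunit of the checkpoint clamp, at 6.23 with miR-184 and 6.83 with NC (-0.60), and it did not pass after quantile normalization (-0.56) or loess removal of a trend with signal (-0.57). Next in size were *RPA1* (-0.50) and *RPA2* (-0.30), subunits of the protein that coats single-stranded DNA, and *TOPBP1* (-0.47), the activator of ATR. *CLSPN*, the adaptor through which ATR reaches CHK1, had a difference of -0.16 and was named after its value was seen. The 4 genes of the list above 0 reached 0.19. The adaptor *ATRIP* shares its feature with another gene and has no value here.

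In the ATM-CHK2 arm, the sensors and mediators of double-strand breaks, 1 of 10 measured genes was lower (against 7.74% of the brighter genes) and 0 were higher (median 0.02). The lower gene was *H2AX*, the histone variant that ATM phosphorylates at breaks, at 6.62 with miR-184 and 7.98 with NC (-1.36). *RAD50* (0.41), of the MRE11 complex that recruits ATM, had the highest value, and the ubiquitin ligase *RNF168* (-0.34) was next in size. These sensors thus lay on both sides of 0, while *ATM* itself was at 0.32.

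The 14-3-3 proteins, which hold phosphorylated CDC25 away from its substrates, were listed with kinases and the isomerase that act on CDC25. Of 14 measured genes 1 was higher (7.14%, against 6.24% of the brighter genes) and 0 were lower by 1.5 times (median 0.16). The higher gene was *YWHAG*, 14-3-3 gamma, at 13.11 with miR-184 and 12.38 with NC (0.73), followed by *YWHAH* (0.56), 14-3-3 eta, which passed as well after quantile normalization (0.65) or loess (0.59). All 7 genes of 14-3-3 proteins lay above 0, between 0.06 and 0.73 (median 0.28), a subset taken out after its values were seen. Of the 11184 brighter genes 5194 lay above 0. *NEK11* (0.44), a kinase that phosphorylates CDC25A for degradation, lay above 0, and *PLK1* (-0.34), which activates CDC25C, below it. The signals of *NEK11*, 4.47 with miR-184 and 4.03 with NC, lay on both sides of the gene median of 4.24, so its difference is that of a weak signal.

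Of 8 measured ubiquitin ligase subunits and deubiquitinases of CDC25 and WEE1, 1 was lower (12.5%, against 7.74% of the brighter genes) and 0 were higher by 1.5 times (median 0.11). The F-box proteins of the ligase that degrades CDC25A and WEE1 are paralogs and lay on opposite sides of 0. *FBXW11* read 8.97 with miR-184 and 9.61 with NC (-0.64, or -0.57 and no longer past the threshold after quantile normalization), and *BTRC* 8.04 with miR-184 and 7.72 with NC (0.32). The ligase subunit *SKP1* was at -0.38 and the deubiquitinase *USP7* at 0.25.

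The list of the phosphatase switch at mitotic entry holds subunits of the phosphatase PP2A, genes that act to inhibit it, and *PPM1D*. Inhibition of PP2A keeps CDK1 substrates from being dephosphorylated. Of the 11 genes of this list 1 was lower and 1 higher (median 0.05), each 9.09%, against 7.74% and 6.24% of the brighter genes. *PPP2R1A*, the scaffold subunit of PP2A, was at 8.66 with miR-184 and 9.47 with NC (-0.81). *ENSA*, which inhibits PP2A once MASTL has phosphorylated it, was at 8.28 with miR-184 and 7.62 with NC (0.66). *PPM1D* (-0.54), a phosphatase that reverses the marks of ATM and CHK kinases, and the PP2A subunit *PPP2R2A* (0.44) did not pass.

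Among 10 CDKs and cyclins on which CDC25 and WEE1 act or which sit beside them, 2 were lower and 1 was higher (median -0.13), when 7.74% of the brighter genes were lower and 6.24% higher. *CDK2*, a main substrate of CDC25A, was at 11.26 with miR-184 and 11.95 with NC (-0.69), and the G1 cyclin *CCND1* was at -1.28. The G1 kinase *CDK6* was at 1.42 and its paralog *CDK4* at -0.36. The mitotic pair, *CDK1* (0.12) and *CCNB1* (-0.06), lay near 0 like *CDC25C*. Of 7 related enzymes, 1 was lower (14.3%, against 7.74% of the brighter genes) and 0 were higher (median 0.11). *TRRAP* (-0.83), a member of the ATM and ATR family without kinase activity, was the lower one. The kinases of that family *MTOR* (0.23) and *PRKDC* (0.10), and the phosphatases *CDC14B* (0.21) and *CDC14A* (0.16), did not pass.

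**Figure D4:**
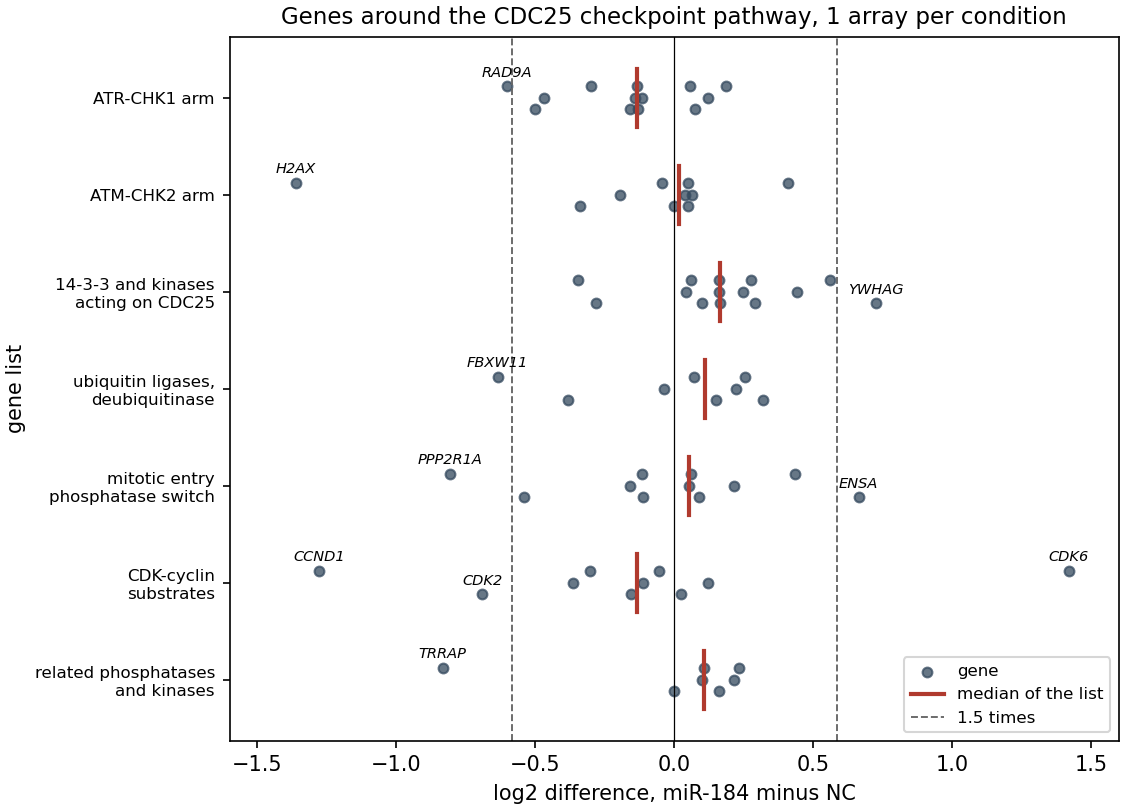
Log2 difference, miR-184 minus NC (x axis, 1 array per condition), of 73 genes in 7 lists (y axis), with each gene as a point, the median of a list as a red bar, dashed lines at 1.5 times and names for the genes past them. The list medians lie between -0.14 and 0.16, and the genes past the lines are *RAD9A*, *H2AX*, *FBXW11*, *PPP2R1A*, *CCND1*, *CDK2* and *TRRAP* on the lower side and *YWHAG*, *ENSA* and *CDK6* on the higher side.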

How the data were processed

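The authors hybridised total RNA of transfected HCECs to the Affymetrix Human Transcriptome Array 2.0, and 1 array per condition was analysed here. No source used here gives the number of cultures behind each RNA. Scans were analysed in Command Console with its defaults and the data normalized in Expression Console. They deposited log2 signals per feature. The labels instead describe Agilent Cy3 labelling, with Agilent Feature Extraction 9.1 in the submitters' processing notes, but the feature names are those of the Affymetrix array. No source used here gives the genome build of its annotation. Features with 1 symbol in the platform annotation (23730) were named, with symbols updated to RefSeq GRCh38.p14, and of 520 genes with several features the one with the highest mean signal was taken. No filter, rescaling or test was applied, and the number of arrays (2) limits the precision. Genes were counted at 1.5 times, after the fold part of the study's rule for lower genes. That rule also had a *P*-value criterion, which was left out here for want of replicate arrays. The 9 genes and the 7 lists were chosen with earlier results of these data known. Named are all 9 genes, list genes past 1.5 times, up to 4 with the largest absolute differences in each list, *PLK1*, *CDK1* and *CCNB1*, and, chosen after their values were seen, *CLSPN*, *PRKDC* and *RNF8*. Some genes that this rule names are not reported here. Cell type markers came from a separate list. Alternatives were median centring, quantile normalization, loess removal of the trend with signal (span 0.3), the mean over features, the median signal as a minimum, all features, and thresholds of 2 and 1.2 times. The steps were run on data simulated from the NC values with known shifts. Only median centring, quantile normalization and loess were required to recover the shifts. That run does not measure the precision of the reported differences. Python 3.11.15 with numpy 2.4.6, pandas 2.3.3 and statsmodels 0.14.6 was used.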

Additional observations from a re-analysis of the deposited data

How the results depend on the processing

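No paired analysis was possible because each condition has 1 array. Under centring, quantile normalization, loess and the mean over features, the difference of *CDC25A* stayed between -0.94 and -0.87 and that of *CDC25B* between -0.56 and -0.47, inside 1.5 times, and 0 of the 9 genes had another sign. The median of the 9 stayed between -0.20 and -0.09. The count of lower genes among the 9 was 0 at 2 times and 2 at 1.2 times, and that of higher genes was 1 at 1.2 times. The share of genes past 1.5 times was 7.74% (lower) and 6.24% (higher) among genes that reached the median signal. After quantile normalization *RAD9A* (-0.56) and *FBXW11* (-0.57) no longer passed and *YWHAH* (0.65) did. After loess *RAD9A* (-0.57) did not pass and *YWHAH* (0.59) did. The cause was not tested.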

Other observations

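In 923 of 22368 genes (4.13%) the deposited signal was the same in both arrays, among them *RNF8*, a ubiquitin ligase of the double-strand break response, at 5.63 with miR-184 and 5.63 with NC. None of the 9 genes of the CDC25 and checkpoint group was among them.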
